A study of Homo sapiens with 12 samples.

Results

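Small nucleolar RNA (snoRNA) host genes were examined in RNA sequencing libraries of cells labelled Jurkat, the name of a human leukemia line of T cell origin. The host genes were taken by name, as every gene called SNHG followed by a number together with GAS5, ZFAS1 and DANCR. This gave 31 genes of the 60671 in the table, and 24 of them reached a mean of at least 1 FPKM (fragments mapped to a gene, scaled to the gene's length and the size of the library) over the 12 libraries. The libraries formed 4 groups of 3. NC+DMSO and NC+VCR were control cells, which the labels call wild type and the study's methods describe as carrying the GFP vector. PTPN21+DMSO and PTPN21+VCR were cells given FLAG-tagged PTPN21, a protein tyrosine phosphatase, by lentivirus under the SFFV promoter. All cells were kept for 48 h with vincristine (VCR), a drug that disrupts microtubules, or with its solvent DMSO. The VCR dose of these libraries, whether the PTPN21 cells were 1 clone or a pool, and whether replicates came from separate cultures are not given in the sources used here, so the p-values measure the spread between these libraries, which may be technical. In bulk RNA, fewer cells of a kind and less RNA per cell cannot be told apart.

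snoRNAs guide the chemical modification of ribosomal RNA. They are cut out of the introns of longer host transcripts. Box C/D snoRNAs bind a set of core proteins around fibrillarin and direct ribose methylation, while box H/ACA snoRNAs bind a set around dyskerin and direct pseudouridylation. Some hosts encode ribosomal proteins or translation factors, and others, the SNHG genes and GAS5 among them, leave a spliced RNA with little or no coding capacity. Many host transcripts start with a C followed by a run of pyrimidines, as do the mRNAs of ribosomal proteins, and several noncoding hosts are known to be degraded by nonsense-mediated decay while they are being translated. GAS5 was first described as an RNA that builds up in growth-arrested cells.

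The start sites of some host genes that moved with VCR are shown first because start sequence is a feature that the choice by name did not use. RefSeq windows were found for 27 of the 31 genes, but not for SNHG6, SNHG15, SNHG9 and SNHG25. The letters TATAA, beginning 40 to 20 bases before the start on the strand that reads like the RNA, were present in 6 of the 27 (22.2%), against 4.94% of 27305 genes. On the other strand the same letters were present in 1 of 27, against 2.18%. A C followed by 4 or more bases that are each C or T, beginning within 3 bases of the start, was present in 11 of 27 (40.7%), against 16% of all genes. The 2 motifs do not overlap each other, and 5 host genes (SNHG12, SNHG19, SNHG5, SNHG7 and ZFAS1) held both (18.5%, against 0.557%). The windows below run from 45 bases before the start to the 30th base of the transcript, with both motifs in capitals. ZFAS1, SNHG8 and SNHG5 were higher with VCR and SNHG1, SNHG30, SNHG12 and SNHG19 were lower, each in at least 1 comparison described later. SNHG6 and SNHG15 also moved but had no window. The windows of SNHG11, SNHG29 (both higher) and SNHG4 (lower) are not printed. SNHG4 held the pyrimidine run without TATAA, and SNHG11 and SNHG29 held neither motif.
ZFAS1: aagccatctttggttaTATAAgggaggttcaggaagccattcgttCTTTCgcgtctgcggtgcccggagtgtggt
SNHG8: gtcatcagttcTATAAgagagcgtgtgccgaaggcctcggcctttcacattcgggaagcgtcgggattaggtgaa
SNHG5: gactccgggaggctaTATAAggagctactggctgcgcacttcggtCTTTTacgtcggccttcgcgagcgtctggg
SNHG1: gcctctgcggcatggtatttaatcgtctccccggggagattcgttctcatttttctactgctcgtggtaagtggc
SNHG30: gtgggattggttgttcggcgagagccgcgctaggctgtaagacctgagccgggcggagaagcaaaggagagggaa
SNHG12: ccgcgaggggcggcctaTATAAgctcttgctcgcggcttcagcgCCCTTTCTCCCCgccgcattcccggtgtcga
SNHG19: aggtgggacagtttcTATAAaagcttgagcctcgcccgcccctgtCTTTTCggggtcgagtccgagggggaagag

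In RefSeq's GRCh38.p14 these windows lie at chr20:49278597-49278671 on the plus strand (ZFAS1), chr4:118278717-118278791 on the plus strand (SNHG8), chr6:85678704-85678778 on the minus strand (SNHG5), chr11:62855856-62855930 on the minus strand (SNHG1), chr17:35568069-35568143 on the plus strand (SNHG30), chr1:28581844-28581918 on the minus strand (SNHG12) and chr16:2155329-2155403 on the minus strand (SNHG19). Genes with both motifs were thus found among those that were higher (ZFAS1, SNHG5) and among those that were lower (SNHG12, SNHG19). For GAS5 the RefSeq window lies at an upstream start, 1056 bases before the place where 12 of its 29 GENCODE 29 transcripts begin. The first 40 bases of transcript GAS5-219 (chr1:173867950-173867989, minus strand, GRCh38) open with a pyrimidine run of 6 bases, in capitals.
GAS5: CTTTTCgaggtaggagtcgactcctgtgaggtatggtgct

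By position in GENCODE 29, 143 deposited entries for snoRNAs and the related scaRNAs lay on the same strand within 29 of the 31 host genes. Some small RNAs have more than 1 entry, and none was found in this way within GAS5 or SNHG27. The search took only deposited entries typed as snoRNA or scaRNA, so this does not show that GAS5 or SNHG27 hosts none. Of the 143, 84 lay within SNHG14 and 93 lay wholly in introns. Most of these 93 were in SNHG14, and in the other hosts most entries lay in or across an exon. Both examples below are of the box C/D kind, with box C (TGATGA) and box D (CTGA) in capitals. GENCODE 29 has both inside an exon of at least 1 longer host transcript. SNORD12 lies at chr20:49280683-49280772 on the plus strand within ZFAS1, and SNORD27 at chr11:62855012-62855083 on the minus strand within SNHG1.
SNORD12: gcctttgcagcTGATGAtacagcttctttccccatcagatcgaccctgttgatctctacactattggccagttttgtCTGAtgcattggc
SNORD27: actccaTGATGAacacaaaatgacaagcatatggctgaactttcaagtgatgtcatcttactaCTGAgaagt

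The labels were first checked against the files. PTPN21 was at 0.0638 ± 0.0378 FPKM (SD, n = 3) in NC+DMSO and 8.82 ± 1.48 in PTPN21+DMSO, and at 0.367 ± 0.205 in NC+VCR and 5.74 ± 1.21 in PTPN21+VCR. Of 10 T cell markers, 7 stayed below 1 FPKM in every library, and CD5, CD28, LCK and CD247 were listed at 0 in all 12. CD3D (61.8 to 140 FPKM) and TAL1 (3.22 to 16.5) were present, as were EPCAM (58.3 to 123), an epithelial marker, and LYZ (9.08 to 16.995), a myeloid one. Of the 10 markers of other cell types, 6 also stayed below 1 FPKM in every library. Among these were the other myeloid markers, CD14 (at most 0.0797) and CSF1R (at most 0.388). The labelled cell type therefore lacked most of its defining markers, and the cells are called here by their label alone. The 10 T cell markers summed to 74.6 to 107 FPKM in NC+DMSO, 112 to 137 in NC+VCR, 128 to 157 in PTPN21+DMSO and 111 to 116 in PTPN21+VCR, mostly from CD3D. The 10 markers of other cell types summed to 71.7 to 95.3, 98.4 to 106, 81.2 to 88.2 and 94.7 to 137 FPKM in the same order, and the part of either list in the results was not tested. Depth, estimated from the steps of low FPKM values, was 14520000 to 17940000 fragments in the NC libraries and 20620000 to 24000000 in the PTPN21 libraries, so depth and construct cannot be told apart.

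The host genes spanned a wide range of levels. FPKM is scaled to gene length, but the annotation and counting used are not given, so levels can be set side by side between genes only roughly. SNHG6, the host of SNORD87 on chromosome 8, was the highest in every library, with a mean of 815 FPKM over all 12. GAS5 followed at 147 FPKM, SNHG29 at 131, SNHG19 at 107, SNHG5 at 85.0, ZFAS1 at 65.5 and SNHG32 at 60.6. SNHG12, SNHG16, SNHG8, SNHG1, SNHG4 and DANCR lay between 30.03 and 10.4 FPKM, and 11 more lay between 9.26 (SNHG15) and 1.22 (SNHG11). The remaining 7 stayed below the minimum. SNHG22 (0.826 FPKM) and SNHG9 (0.539) were the closest to it, SNHG27, SNHG31, SNHG28 and SNHG14 were below 0.1, and SNHG18 was listed at 0 in every library.

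SNHG6 carried much of the family's RNA. Summed over the 31 genes, the level was 1134 ± 186 FPKM (SD, n = 3) with DMSO and 1755 ± 58.2 with VCR in control cells. In PTPN21 cells it was 1534 ± 77.7 FPKM with DMSO and 1954 ± 66.5 with VCR. SNHG6 made up 45.9% ± 0.655 of the sum in NC+DMSO and 44.4% ± 0.414 in PTPN21+DMSO, but 57.8% ± 2.67 in NC+VCR and 53.5% ± 2.12 in PTPN21+VCR. Without SNHG6 the sums were 614.5 ± 104, 852.7 ± 42.2, 740.6 ± 52.0 and 908.1 ± 40.6 FPKM in the same order. Most of the difference in the sum between VCR and DMSO was thus in SNHG6, and the other 30 genes differed less as a sum.

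**Figure D1:**
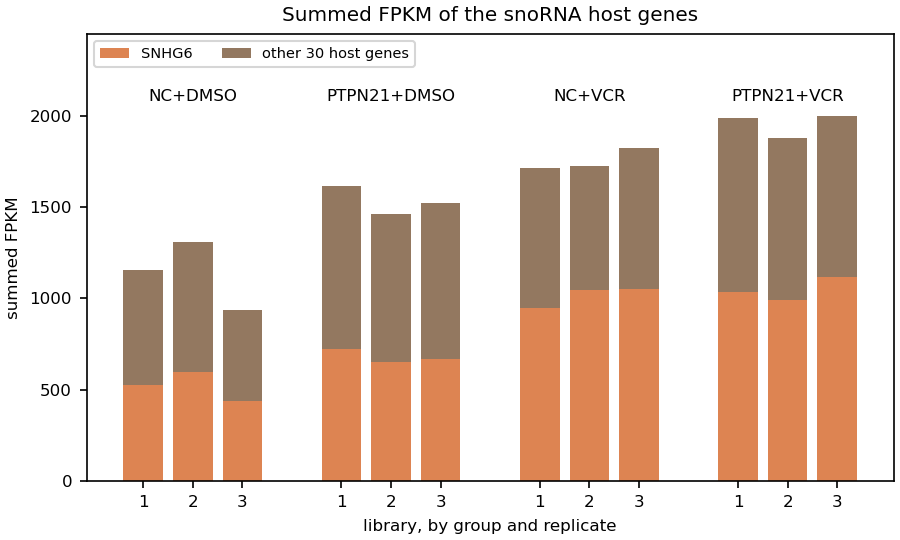
Summed FPKM of the 31 snoRNA host genes in each of the 12 libraries (bars, linear axis from 0), split into SNHG6 and the other 30 genes, by group and replicate. The lowest sum is 938 FPKM (NC+DMSO replicate 3) and the highest 1998 (PTPN21+VCR replicate 3), and all VCR libraries lie above all DMSO libraries.

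The first comparison asked how VCR changed the host genes in control cells. Between NC+VCR and NC+DMSO, 6 of the 24 host genes rose and 4 fell (limma, Benjamini-Hochberg adjusted p under 0.05). Among all 11591 genes tested, 36.2% passed. As shares of all genes tested, 7.91% were higher and 28.3% lower. The median log2 fold change of the 24 was -0.33, near that of all genes (-0.36). The libraries of the 2 groups did not overlap for 9 of the 24, against 44.1% of all genes. The genes that rose were SNHG6, GAS5, SNHG5, ZFAS1, SNHG8 and SNHG11, and those that fell were SNHG1, SNHG15, SNHG30 and SNHG4.

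**Figure D2:**
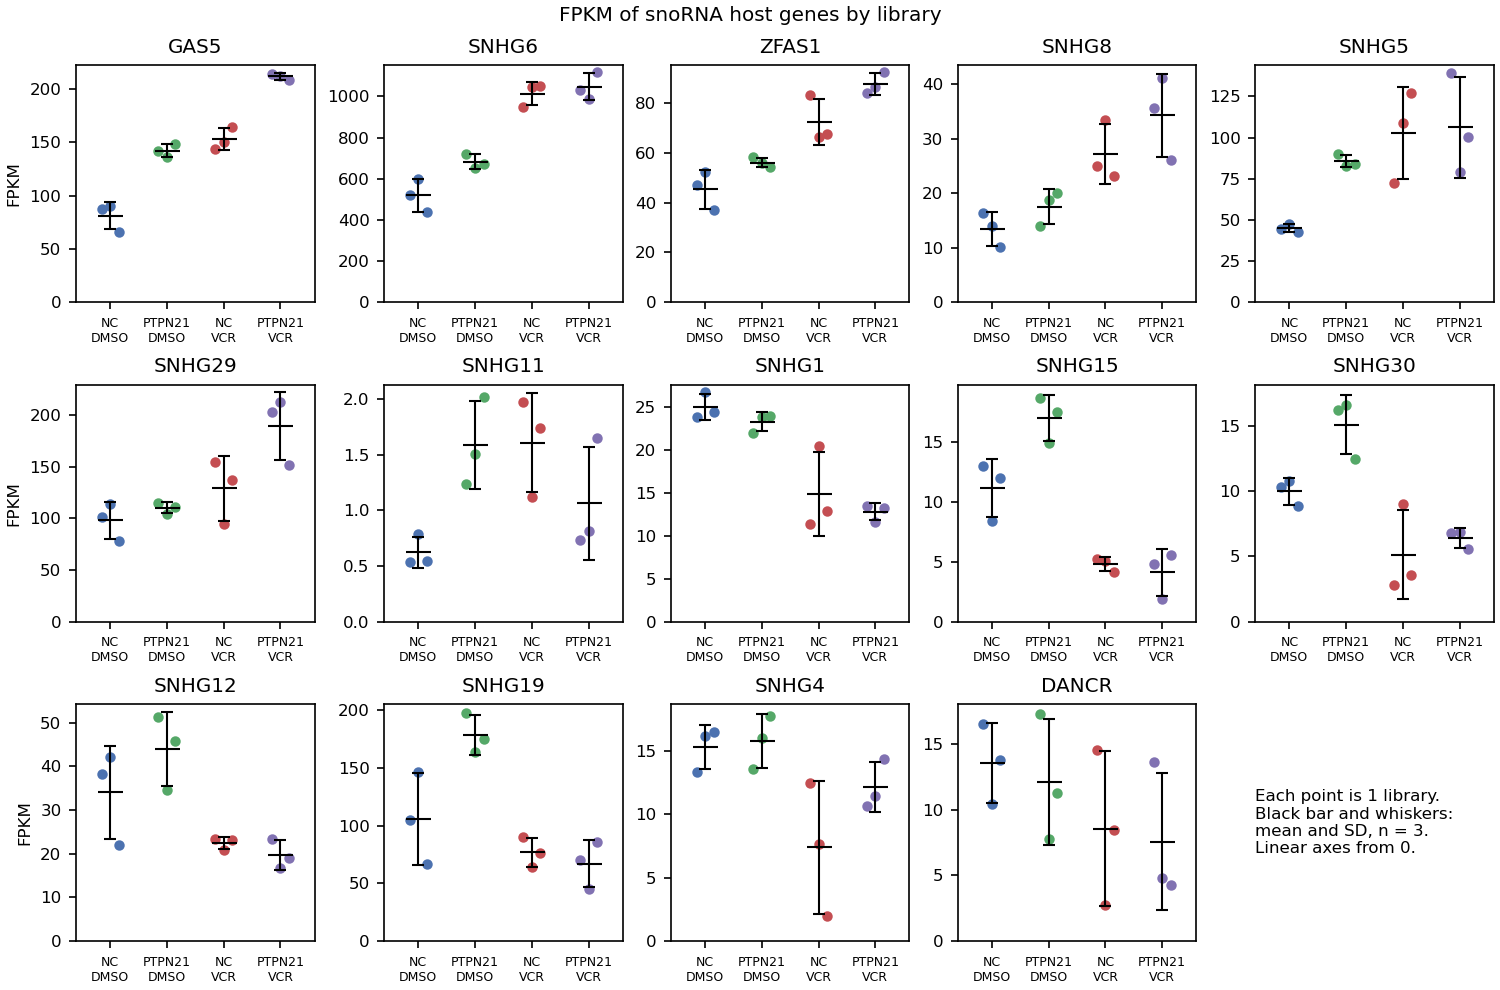
FPKM of 14 snoRNA host genes in each library (points) with the mean and SD of each group (black bars and whiskers, n = 3, linear axes from 0), with the DMSO groups on the left of each panel. GAS5, SNHG6, ZFAS1 and SNHG8 are higher with VCR in both kinds of cell, and SNHG1, SNHG15 and SNHG30 are lower.

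GAS5, a noncoding RNA known to bind the glucocorticoid receptor, was at 87.0, 90.1 and 66.3 FPKM in the NC+DMSO libraries and at 144, 151 and 165 in the NC+VCR libraries. All VCR values lay above all DMSO values, a 1.89-fold difference of means (log2 fold change 0.92, SE 0.12, adjusted p = 0.000193). SNHG6 was at 523, 599 and 436 FPKM with DMSO and at 948, 1046 and 1049 with VCR. It too was separated, 1.95-fold higher (0.97, SE 0.12, adjusted p = 9.2e-05). GENCODE 29 places 29.3% of the exon bases of SNHG6 opposite exons of MCMDC2, and the counting is not stated to use strand.

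ZFAS1, which runs opposite ZNFX1 and carries 3 snoRNAs of the SNORD12 family, was at 47.1, 52.4 and 36.9 FPKM with DMSO and at 83.3, 66.4 and 67.8 with VCR, again with no overlap (log2 fold change 0.67, SE 0.14, adjusted p = 0.00343). SNHG8, the host of SNORA24, was at 16.3, 13.9 and 10.1 FPKM against 25.0, 33.4 and 23.1. It was 2.02-fold higher and separated (0.97, SE 0.23, adjusted p = 0.00609). SNHG5, the host of SNORD50B, was at 44.6, 47.8 and 42.8 FPKM against 72.3, 109 and 127. The VCR libraries were all above the DMSO libraries but spread more widely (1.14, SE 0.21, adjusted p = 0.00191). These 5 genes kept their call in all 21 alternative settings.

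SNHG11, the host of SNORA60, was near the minimum level, at 0.536, 0.786 and 0.543 FPKM with DMSO and 1.97, 1.12 and 1.74 with VCR. Its rise was small on the log scale (0.67, SE 0.24, adjusted p = 0.0423) and passed in 8 of 20 alternatives. It no longer passed without any 1 NC+DMSO library (adjusted p = 0.101, 0.0525 and 0.0934), without NC+VCR replicate 1 or 3 (0.114 and 0.0937), without PTPN21+DMSO replicate 2 or 3 (0.0568 and 0.0518) or without PTPN21+VCR replicate 2 (0.0512). In PTPN21 cells SNHG11 went the other way and did not pass. There it was at 1.23, 1.51 and 2.02 FPKM with DMSO and at 0.729, 0.810 and 1.64 with VCR, which overlapped.

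Among the genes that fell, SNHG1, the host of SNORD25 to SNORD28 and others, was at 23.9, 26.8 and 24.4 FPKM with DMSO and at 11.4, 20.5 and 12.8 with VCR. All VCR libraries were lower, NC+VCR replicate 2 least so (log2 fold change -0.75, SE 0.19, adjusted p = 0.00899). SNHG15, the host of SNORA9, was at 13.01, 8.40 and 11.96 FPKM against 5.20, 5.06 and 4.17. The groups did not overlap (-1.04, SE 0.28, adjusted p = 0.0131).

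SNHG30, the host of SNORD7, was at 10.3, 10.8 and 8.83 FPKM with DMSO and at 2.79, 9.02 and 3.53 with VCR. Here NC+VCR replicate 2 lay inside the DMSO range and the other two far below it (-0.97, SE 0.30, adjusted p = 0.0246). The call was lost without NC+DMSO replicate 1 or 2 (adjusted p = 0.0612 and 0.0624) and without NC+VCR replicate 1 or 3 (0.0883 and 0.077). SNHG4, the host of SNORA74A, was at 13.4, 16.2 and 16.5 FPKM against 12.5, 7.69 and 2.02. Its VCR libraries were all lower but differed widely (-1.20, SE 0.40, adjusted p = 0.0355). Without NC+VCR replicate 3 its log2 fold change fell in size to -0.59 (adjusted p = 0.0641), and it did not pass without any 1 NC+DMSO library (adjusted p = 0.0573, 0.0788 and 0.0896). In PTPN21 cells SNHG4 was at 13.6, 16.0 and 17.8 FPKM with DMSO and at 10.6, 11.4 and 14.4 with VCR, which overlapped.

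The falls in control cells passed or did not pass according to how the libraries were scaled. Median ratio scaling moved the median log2 fold change of all genes from -0.36 to -0.03, and the share of higher genes among all calls from 21.9% to 56.9%. Under it 7 host genes were called higher and 0 lower, with SNHG1 at -0.37 (adjusted p = 0.217), SNHG15 at -0.69 (0.0987), SNHG30 at -0.62 (0.172) and SNHG4 at -0.84 (0.153). Under quantile normalization, where 50.8% of all calls were higher, the counts were 6 and 0. TPM scaling went the other way, with 16.3% of all calls higher, a median of all genes of -0.46 and 5 host genes called higher and 5 lower. The rises of GAS5, SNHG6, ZFAS1, SNHG8 and SNHG5 passed under every scaling.

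The same question was put to the PTPN21 cells. Between PTPN21+VCR and PTPN21+DMSO, 5 of the 24 host genes rose and 5 fell, against 28.5% of all genes passing, 9.22% as higher and 19.3% as lower. The median log2 fold change of the 24 was -0.35, lower than that of all genes (-0.17). The groups did not overlap for 13 of the 24, against 50.4% of all genes. The rises were those of SNHG6, GAS5, ZFAS1, SNHG8 and SNHG29, the falls those of SNHG15, SNHG19, SNHG12, SNHG1 and SNHG30. The counts were 5 and 5 under each of the scalings tried, although the share of higher genes among all calls went from 32.3% as deposited to 51.5% with median ratio scaling.

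GAS5 was at 142, 136 and 148 FPKM in PTPN21+DMSO and at 214, 213 and 209 in PTPN21+VCR, with little spread in either (1.49-fold, log2 fold change 0.57, SE 0.12, adjusted p = 0.00423). SNHG6 went from 722, 652 and 670 FPKM to 1033, 988 and 1118 without overlap (0.62, SE 0.12, adjusted p = 0.00212). ZFAS1 was at 58.3, 55.9 and 54.4 FPKM with DMSO and at 84.3, 86.5 and 92.6 with VCR. The 3 libraries of each group lay close together and apart from the other (0.63, SE 0.14, adjusted p = 0.00551). SNHG8 was at 13.9, 18.7 and 20.05 FPKM against 35.6, 41.1 and 26.1, which also did not overlap (0.92, SE 0.23, adjusted p = 0.0099).

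SNHG29, the host of SNORD49A, SNORD49B and SNORD65, was at 115, 105 and 111 FPKM in PTPN21+DMSO and at 203, 212 and 151 in PTPN21+VCR. All VCR libraries were higher (0.76, SE 0.20, adjusted p = 0.013), although without PTPN21+VCR replicate 2 the adjusted p was 0.0555. In control cells it was at 102, 114 and 78.5 FPKM with DMSO and at 155, 94.1 and 137 with VCR, which overlapped (0.38, SE 0.20, adjusted p = 0.151). SNHG5, which rose in control cells, was already at 90.2, 83.0 and 84.1 FPKM in PTPN21+DMSO and was at 139, 78.9 and 101 in PTPN21+VCR. These ranges overlapped (0.27, 95% interval -0.20 to 0.73, adjusted p = 0.382).

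SNHG15 had the largest fall of the family in the PTPN21 cells. It was at 18.6, 14.9 and 17.5 FPKM in PTPN21+DMSO and at 4.83, 1.91 and 5.58 in PTPN21+VCR, 4.15-fold lower (log2 fold change -1.90, SE 0.28, adjusted p = 0.00048). SNHG19, a short gene that carries SNORD60, was at 197, 163 and 175 FPKM against 70.2, 45.2 and 86.1. It was 2.66-fold lower with no overlap (-1.44, SE 0.27, adjusted p = 0.00234).

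SNHG12, the host of SNORA44, SNORA61, SNORA16A and SNORD99, was at 51.3, 34.6 and 45.8 FPKM in PTPN21+DMSO and at 23.5, 16.8 and 19.0 in PTPN21+VCR (-1.11, SE 0.23, adjusted p = 0.00392). SNHG1 was at 22.01, 23.9 and 23.96 FPKM against 13.5, 11.7 and 13.2, with all VCR libraries lower (-0.82, SE 0.19, adjusted p = 0.00676). SNHG30 was at 16.2, 16.6 and 12.4 FPKM against 6.78, 6.86 and 5.55 (-1.11, SE 0.30, adjusted p = 0.0159). Its groups were separated, but the adjusted p was 0.0534 without PTPN21+DMSO replicate 1, 0.0544 without replicate 2 and 0.0548 without PTPN21+VCR replicate 3.

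In control cells SNHG12 was at 38.2, 42.1 and 21.9 FPKM with DMSO and 23.3, 20.9 and 23.1 with VCR (log2 fold change -0.53, SE 0.23, adjusted p = 0.0885), and SNHG19 at 105, 146 and 66.5 against 89.7, 64.4 and 76.4 (-0.40, SE 0.27, adjusted p = 0.269). In both genes NC+DMSO replicate 3 was as low as the VCR libraries. DANCR, the host of SNORA26 and known for holding cells in an undifferentiated state, passed in no comparison. It was at 16.5, 10.4 and 13.8 FPKM in NC+DMSO, 14.5, 2.74 and 8.41 in NC+VCR, 17.3, 7.78 and 11.2 in PTPN21+DMSO and 13.6, 4.83 and 4.28 in PTPN21+VCR. Replicate 1 was the highest library of DANCR in every group, and the log2 fold change with VCR was -0.81 (95% interval -1.90 to 0.28, adjusted p = 0.222) in control cells and -0.71 (-1.80 to 0.38, adjusted p = 0.315) in PTPN21 cells.

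**Figure D3:**
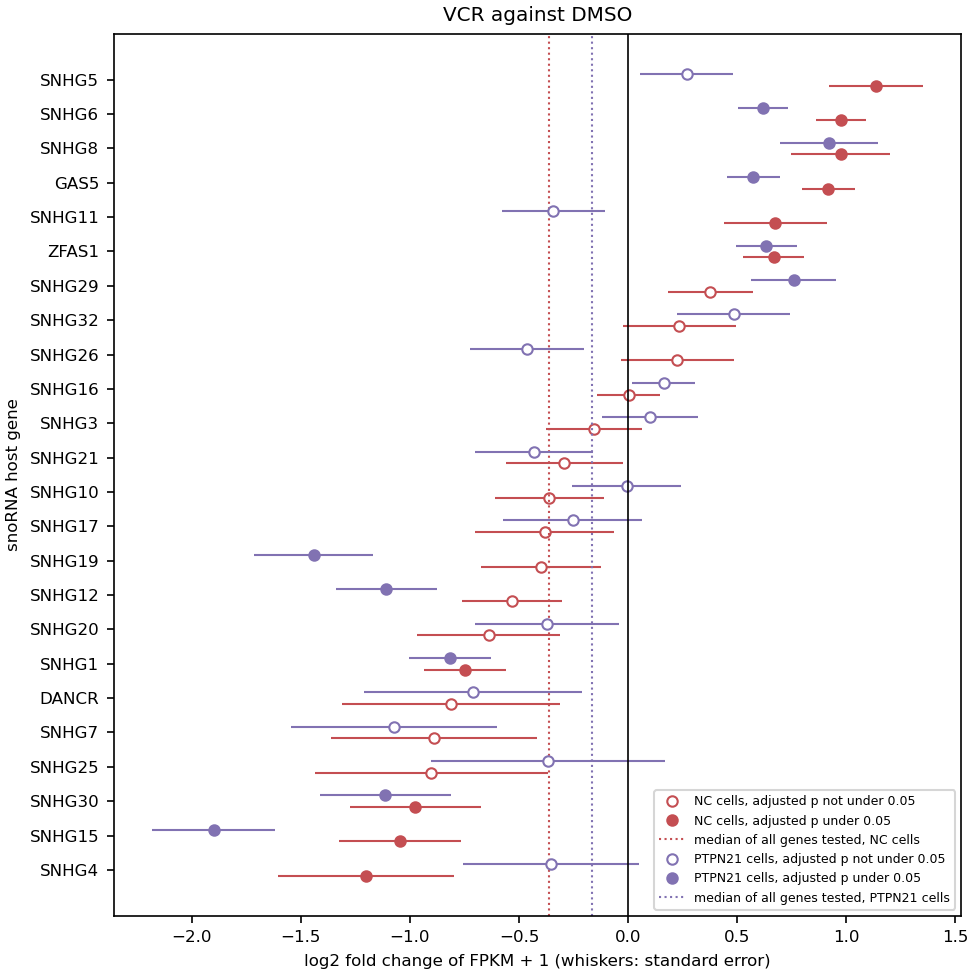
Log2 fold change of FPKM + 1 with VCR against DMSO for the 24 tested host genes (points, whiskers are standard errors) in NC cells (red) and PTPN21 cells (purple), filled where the adjusted p was under 0.05, with dotted lines at the medians of all genes tested. GAS5, SNHG6, ZFAS1 and SNHG8 are filled to the right of 0 in both colours, and SNHG1, SNHG15 and SNHG30 to the left in both.

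The VCR comparisons in control and PTPN21 cells share no library, so their values can be set side by side. Of the 24 genes, 8 were higher with VCR in both, 13 lower in both and 3 opposite. Of all 11591 genes tested, 2490 were higher in both, 6215 lower in both and 2886 opposite. GAS5, SNHG6, ZFAS1 and SNHG8 passed as higher in both, and SNHG1, SNHG15 and SNHG30 as lower in both. Among all genes, 582 passed as higher in both and 1596 as lower in both. The difference between the responses was tested by the interaction of VCR and PTPN21. In it 0 of 24 host genes passed with limma, against 0.129% of all genes (0.0259% as higher and 0.104% as lower). The interaction was -0.34 (SE 0.17, adjusted p = 0.388) for GAS5, -0.87 (adjusted p = 0.255) for SNHG5 and -1.04 (adjusted p = 0.273) for SNHG19. A pass in 1 kind of cell alone, as for SNHG5, SNHG11, SNHG4, SNHG29, SNHG12 or SNHG19, was therefore not shown to differ from the other kind.

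The next comparison asked what PTPN21 overexpression changed without VCR. Between PTPN21+DMSO and NC+DMSO, 2 of the 24 host genes rose and 0 fell with limma. Of all genes 6.34% passed, 2.65% as higher and 3.69% as lower. The direction was higher for 19 of the 24, with a median log2 fold change of 0.36 against -0.14 for all genes. The share of higher genes among all calls was 41.8% as deposited, 20.5% with TPM scaling, 75.9% with median ratio scaling and 56.3% with quantile normalization, and the host gene counts were 2 and 0 under each. The groups did not overlap for 11 of the 24, 10 of them higher and only SNHG17 lower. Of all genes 33.4% did not overlap in either direction, and the share by direction was not counted. GAS5, whose values are given above, was 1.75-fold higher in the PTPN21 cells with no overlap (0.81, SE 0.12, adjusted p = 0.00679). This call held in 20 of 21 alternatives and was lost when only these 2 groups were fitted (adjusted p = 0.0666).

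SNHG5 was 1.90-fold higher in PTPN21+DMSO than in NC+DMSO, again with separated groups (0.91, SE 0.21, adjusted p = 0.0323). Its call held in 13 of 21 alternatives. It did not pass without NC+DMSO replicate 1 or 3 (adjusted p = 0.0813 and 0.117) or without PTPN21+DMSO replicate 1, 2 or 3 (0.129, 0.0602 and 0.0874). SNHG6 lay just outside the threshold (0.40, SE 0.12, adjusted p = 0.0574). ZFAS1 (0.31, adjusted p = 0.181), SNHG1 (-0.10, 95% interval -0.51 to 0.31, adjusted p = 0.782) and DANCR (-0.20, adjusted p = 0.842) did not pass. The count of host genes called in this comparison went from 2 to 1 in each fit that left out NC+DMSO replicate 1 or 3 or any PTPN21+DMSO library, and to 4 without NC+DMSO replicate 2. The share of all genes called moved too. It went from 6.34% to between 0.578% and 3.61% in the fits with 1, and to 11.6% in the fit with 4.

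Under VCR, the comparison of PTPN21+VCR with NC+VCR called 0 of 24 host genes with limma. Of all genes 1.82% passed, 1.00% as higher and 0.820% as lower. The groups did not overlap for 6 of the 24, near the share of 22.5% of all genes in either direction. All 6 were higher in PTPN21+VCR (SNHG16, ZFAS1, SNHG32, SNHG7, GAS5 and SNHG25), and the share of all genes by direction was not counted. GAS5 was 1.38-fold higher with separated groups (0.47, 95% interval 0.21 to 0.73, adjusted p = 0.0708), and it passed without NC+DMSO replicate 3 (adjusted p = 0.0183) and among genes with a mean of at least 5 FPKM (0.0457). ZFAS1 (0.28, adjusted p = 0.336), SNHG1 (-0.17, adjusted p = 0.702) and DANCR (-0.09, adjusted p = 0.95) did not pass. SNHG6 was nearly level (0.04, 95% interval -0.21 to 0.29).

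**Figure D4:**
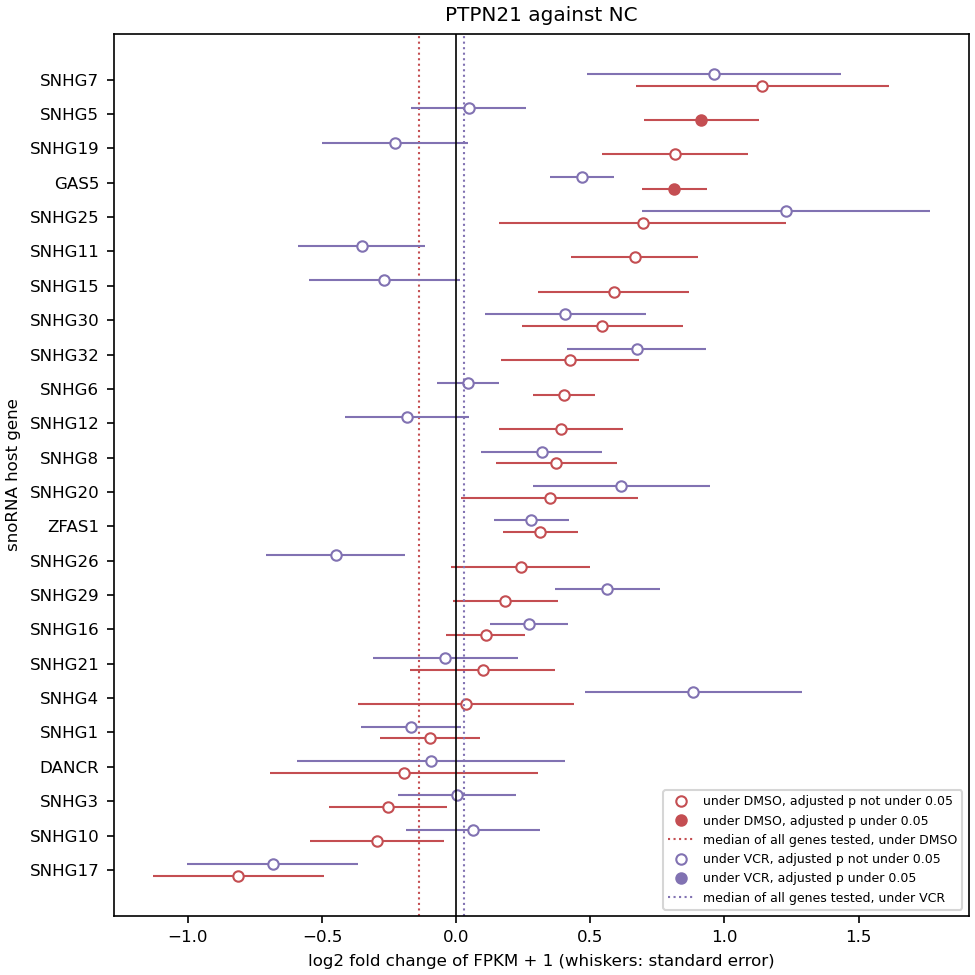
Log2 fold change of FPKM + 1 in PTPN21 against NC cells for the 24 tested host genes (points, whiskers are standard errors) under DMSO (red) and under VCR (purple), filled where the adjusted p was under 0.05, with dotted lines at the medians of all genes tested. Under DMSO 19 of the 24 points lie above 0 and only GAS5 and SNHG5 are filled, and under VCR none is filled.

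The host genes that passed in no comparison, apart from DANCR, were SNHG32, SNHG16, SNHG3, SNHG17, SNHG21, SNHG7, SNHG10, SNHG26, SNHG25 and SNHG20. SNHG16 varied little, at 23.4 ± 4.04 FPKM (SD, n = 3) in NC+DMSO, 23.3 ± 2.08 in NC+VCR, 25.1 ± 1.30 in PTPN21+DMSO and 28.3 ± 1.44 in PTPN21+VCR. SNHG7 had large differences that its spread did not resolve. It was at 2.09, 8.12 and 6.31 FPKM in NC+DMSO, 4.80, 2.87 and 0.443 in NC+VCR, 9.64, 13.8 and 13.1 in PTPN21+DMSO and 5.01, 4.82 and 5.81 in PTPN21+VCR, and its log2 fold change with VCR in the PTPN21 cells was -1.07 (adjusted p = 0.111). SNHG20 was at 0.0177 FPKM in NC+VCR replicate 2 and between 1.07 and 3.11 in the other 11 libraries. SNHG25 was listed at 0 in NC+DMSO replicate 1, and its highest value was 5.84 FPKM in NC+DMSO replicate 3. In GENCODE 29, 18 of the 31 host genes share exon bases with another gene. These include SNHG7 with FAM69B (25.2% of its exon bases), SNHG10 with GLRX5 (20.1%), SNHG21 with FSD2 (34.1%) and SNHG4 with MATR3 (14.0%), so reads of such pairs may be counted for either gene.

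The snoRNAs themselves were poorly measured. Of the 143 snoRNA rows within the host genes, 88 were at 0 in all 12 libraries, among them all 84 within SNHG14, and 13 reached a mean of at least 1 FPKM. Even these varied widely between replicates. SNORD27, within SNHG1, was at 15.2, 9.91 and 13.6 FPKM in NC+DMSO but at 2.34, 15.9 and 0.0966 in NC+VCR, and SNORD26, within the same gene, was at 13.3, 0.174 and 23.7 FPKM in NC+DMSO. SNORD104, within SNHG25, was at 14.5, 3.66 and 11.6 FPKM in NC+DMSO, 1.63, 1.97 and 1.28 in NC+VCR, 6.91, 6.16 and 9.03 in PTPN21+DMSO and 5.94, 3.31 and 4.63 in PTPN21+VCR. These rows give the level of small RNAs in libraries of larger fragments, and no comparison was drawn from them.

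The host genes of the other kind, which encode proteins, were called mostly as higher with VCR. Of 34 protein-coding snoRNA hosts, 19 rose and 1 fell in control cells, where 7.91% of all genes rose and 28.3% fell. Their median log2 fold change was 0.64, against -0.36 for all genes. In PTPN21 cells 18 rose and 2 fell, where 9.22% of all genes rose and 19.3% fell, with a median of 0.58 against -0.17. TPT1, which encodes a translationally controlled growth protein, rose in control cells (1.40, SE 0.23, adjusted p = 0.000732), as did the ribosomal protein genes RPS20 (1.32), RPL17 (1.24) and RPL12 (1.13, adjusted p = 6.84e-05). In PTPN21 cells HSPA8, a chaperone gene, rose by 1.25 on the log2 scale (adjusted p = 0.000844), RPS13 and TPT1 each by 1.00, and NCL, which encodes nucleolin, fell by 1.05 (adjusted p = 0.0103). The direction of the list's calls held under TPM scaling, median ratio scaling and quantile normalization, with 14 to 26 rises and 1 or 2 falls. PTPN21 overexpression gave 7 rises and 0 falls under DMSO, with RPL17 at 1.75 and RPS20 at 1.05, against 2.65% of all genes higher and 3.69% lower. Under VCR it gave 2 rises and 0 falls (RPSA at 0.74 and RPS13 at 0.60), against 1.00% higher and 0.820% lower, and median ratio scaling left 0.

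Of the 8 genes for the core proteins that bind snoRNAs, 0 rose and 4 fell with VCR in control cells, where 28.3% of all genes fell. Their median there was -0.49, near the -0.36 of all genes, and it was -0.088 with median ratio scaling. In PTPN21 cells 0 rose and 7 fell, where 19.3% of all genes fell, with a median of -0.67 against -0.17. In control cells those that fell were GAR1 (-1.34, SE 0.16, adjusted p = 0.000116), NHP2 (-1.08), NOP10 (-0.75) and DKC1 (-0.65), which encode the 4 core proteins of box H/ACA particles. In PTPN21 cells the largest falls were NOP10 (-1.21), GAR1 (-0.93), DKC1 (-0.80, adjusted p = 7.1e-05) and NOP56 (-0.68), a box C/D protein. Calls in the list were lower under every scaling, 2 to 6 in control cells and 4 to 8 in PTPN21 cells. PTPN21 overexpression raised NOP10 under DMSO (1.55, SE 0.18, adjusted p = 0.00191) and NOP10 (1.099) and NHP2 (0.99) under VCR.

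Of 11 factors for assembling and maturing snoRNPs, 0 rose and 7 fell with VCR in control cells (28.3% of all genes fell), with a median of -0.58 against -0.36 for all genes. In PTPN21 cells 0 rose and 4 fell (19.3% of all genes fell), with a median of -0.27 against -0.17. NOLC1, a nucleolar phosphoprotein that binds snoRNPs, fell by 1.23 on the log2 scale in control cells (adjusted p = 0.000131) and by 0.85 in PTPN21 cells (adjusted p = 0.00173). ZNHIT6, a box C/D assembly factor, fell by 0.85 and 0.74, and RUVBL2, an ATPase of the assembly machinery, fell by 1.08 in PTPN21 cells (adjusted p = 4.66e-05). Under median ratio scaling 3 fell and 0 rose in each kind of cell. PTPN21 overexpression lowered NOLC1 (-0.75) and ZNHIT6 (-0.66) under DMSO, but 0 of the 11 passed there without NC+DMSO replicate 1 or 3 or PTPN21+DMSO replicate 1 or 3, and 0 passed under VCR. In the fits without those DMSO libraries 0.578% to 1.6% of all genes passed, against 6.34% with all libraries.

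Of 10 nonsense-mediated decay factors, 0 rose and 3 fell with VCR in control cells and 0 rose and 2 fell in PTPN21 cells. These are near the shares of all genes (7.91% higher and 28.3% lower, and 9.22% higher and 19.3% lower), and the medians were -0.39 against -0.36 and -0.33 against -0.17. SMG5 (-0.78, adjusted p = 0.0271) and UPF3B (-0.37) were among those that fell in control cells, and UPF3B (-0.96, adjusted p = 0.000365) and UPF3A (-0.52) fell in PTPN21 cells. In control cells 0 calls were left in the list under median ratio or quantile scaling, and in PTPN21 cells 1 was left. None of the 10 passed with PTPN21 overexpression. Of the 4 exon junction complex genes, RBM8A (1.16, adjusted p = 0.000132) and MAGOH (0.38) rose and EIF4A3 (-0.45) fell with VCR in control cells, and MAGOH (0.47) rose in PTPN21 cells. The list had 0 falls in control cells under median ratio or quantile scaling. With PTPN21 under DMSO RBM8A rose (0.63) and CASC3 fell (-1.04).

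Among 8 other abundant long noncoding RNAs, 1 rose and 2 fell with VCR in control cells, and 0 rose and 1 fell in PTPN21 cells, near the 28.3% and 19.3% of all genes that fell. The medians of the 8, -0.32 and -0.19, were also near those of all genes. MIR17HG, the host of a microRNA cluster, fell in both (-1.81, adjusted p = 0.00111, and -2.32, adjusted p = 0.000249), CYTOR rose (0.79) and OIP5-AS1 fell (-0.77) in control cells. None of the 8 passed with PTPN21 overexpression. MALAT1 differed widely between replicates in all groups but PTPN21+DMSO. It was at 8.96, 821 and 38.7 FPKM in NC+DMSO and at 1018, 122 and 98.0 in NC+VCR. In PTPN21+DMSO it was at 1105, 856 and 1027 FPKM, and in PTPN21+VCR at 12.3, 1025 and 1092. In the interaction none of the genes of these lists passed.

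**Figure D5:**
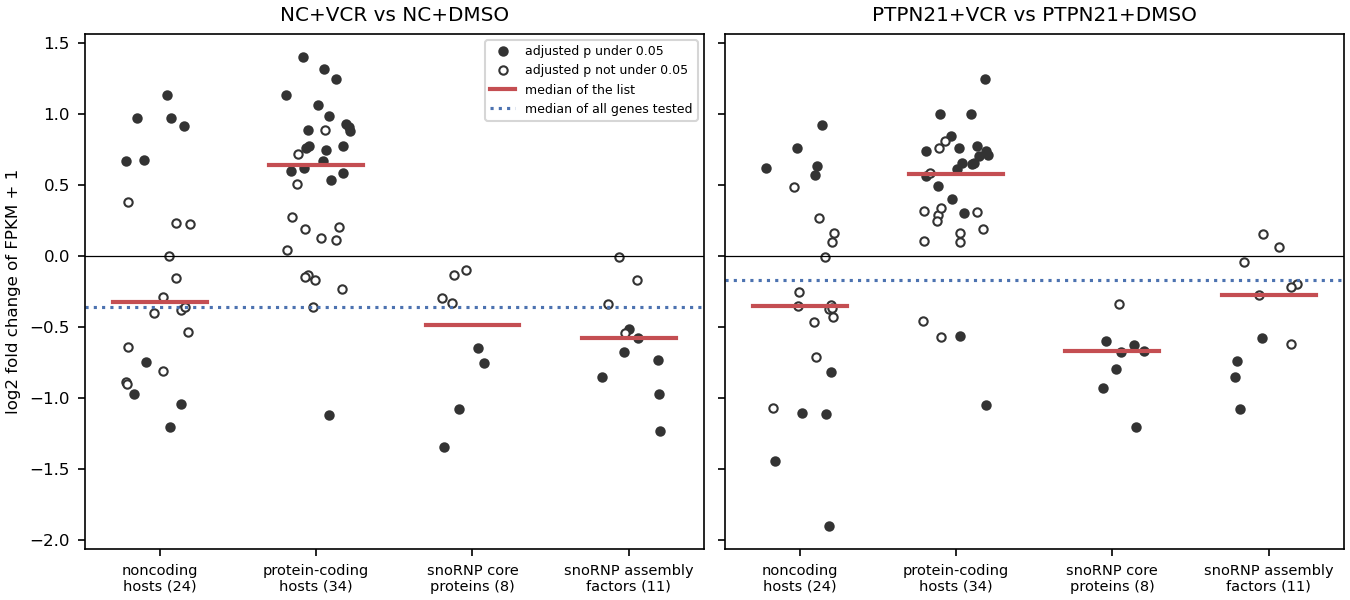
Log2 fold change of FPKM + 1 with VCR for each tested gene (points, filled where the adjusted p was under 0.05) of 24 SNHG, GAS5, ZFAS1 and DANCR genes (noncoding hosts, though GENCODE 29 lists SNHG32 as protein-coding), 34 protein-coding hosts, 8 snoRNP core proteins and 11 snoRNP assembly factors, in NC cells (left) and PTPN21 cells (right), with list medians in red and the median of all genes dotted. Noncoding hosts are filled on both sides of 0, protein-coding hosts mostly above it, and snoRNP core proteins and assembly factors below it.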

How the data were processed

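RNA from 12 libraries was sequenced and processed by an external company. The authors deposited FPKM for 60671 Ensembl genes. The submitters' processing notes name fastp, Bowtie2 and the mouse build mm10, although the identifiers are human, so the build used is uncertain. The counting program, annotation and strand setting are not given in the sources used here. Groups were taken from the sample labels.

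Genes with a mean of at least 1 FPKM were kept, and the deposited FPKM were taken as log2(FPKM + 1). One model of the 4 groups was fitted in limma 3.58.1 (R 4.3.3), with the variance prior following mean level. A fold change on this scale understates that of low genes. The Benjamini-Hochberg adjustment covered all 11591 genes. The fit was tested on simulated data. Depth was estimated with 8702 single-exon genes from steps of FPKM times length. At the best estimate 35.6% to 48.6% of the low values lay near a whole number of fragments, against 20% by chance. A step of 1 fragment cannot be told from a step of 2, and a depth outside the range searched would be missed. Gene positions came from GENCODE 29 (96.3% of identifiers matched) and start windows from RefSeq.

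Full values are given for host genes that passed in any comparison and for GAS5, SNHG1, ZFAS1 and DANCR, and for each list at most the 4 largest changes that passed. 1 such change is not reported here. SNHG16, SNHG7, SNHG20, SNHG25, MALAT1 and the snoRNAs shown were chosen after their values were seen. The host genes and the lists were chosen with earlier results of these data known. The alternatives tried were dropping the filter or raising it to 5 FPKM, a pseudocount of 0.1, TPM, median ratio and quantile scaling, no trend, only the 2 groups compared, a replicate block and leaving out each library. Plots were made in Python 3.11.15.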

Additional observations from a re-analysis of the deposited data

How the results depend on the processing

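Of 310 log2 fold changes of named host genes under the planned settings, 281 kept their direction and side of the threshold, 22 lost the call, 1 gained it and 6 reversed, and of 420 with a library left out the numbers were 381, 25, 1 and 13. The count of host genes called between NC+VCR and NC+DMSO (10) was 6 with quantile normalization and 6 with only these groups fitted, and 7 to 12 with a library left out. The share of all genes called (36.2%) was 25.6%, 23.1% and 27.8% to 34.7% in the same order. Between PTPN21+VCR and PTPN21+DMSO (10) the host gene count was 9 to 11 with a library left out, and the share of all genes (28.5%) was 20.3% to 31.2%. Between PTPN21+DMSO and NC+DMSO (2) the host gene count was 1 without the filter, without the trend, with the replicate block and with only these groups, 3 among genes of at least 5 FPKM, and 1 to 4 with a library left out. The share of all genes (6.34%) was 0.628%, 2.77%, 2.09%, 0.345%, 14.2% and 0.578% to 11.6% in the same order. Between PTPN21+VCR and NC+VCR (0) the host gene count was 1 among genes of at least 5 FPKM and 0 to 1 with a library left out. The share of all genes there (1.82%) was 5.15% and 0.371% to 3.05%. For the interaction the host gene count stayed 0, with 0.0284% to 0.259% of all genes called. The reversals concern values that did not pass. SNHG1 between PTPN21+DMSO and NC+DMSO was 0.095 with median ratio scaling and 0.020 with quantile normalization. In the interaction DANCR was -0.098 and -0.061 under these, and with TPM scaling SNHG1 was 0.018 and ZFAS1 0.051. With a library left out DANCR ranged from -0.47 to 0.061 (PTPN21+DMSO against NC+DMSO), from -0.66 to 0.37 (PTPN21+VCR against NC+VCR) and from -0.46 to 0.56 (interaction), SNHG1 from -0.33 to 0.071 (PTPN21+VCR against NC+VCR) and from -0.23 to 0.17 (interaction), and ZFAS1 from -0.14 to 0.10 (interaction). The cause of these changes was not tested. Replicate numbers did not pair the libraries (r of their deviations -0.145 to 0.0583 over 18 pairs). With the number as a replicate block the counts called were 8, 10, 1, 0 and 0. The shares of all genes were 32.7%, 25.5%, 2.09%, 0.638% and 0.069%. With median ratio scaling the mean summed FPKM was 964.7 with DMSO and 1954 with VCR in NC cells, and 1490 and 2154 in PTPN21 cells. With TPM scaling it was 1216 and 1755, and 1490 and 1875. With 3 libraries a group and unknown counts, low genes such as SNHG11 are the least certain.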
